A study of Danio rerio with 6 samples.

Results

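The 10 genes described here are the Period, PAR bZIP and ciart genes of the zebrafish (Danio rerio) circadian clock, taken by their Ensembl IDs from a table of 25640 genes. They are 2 per1 genes, per2, per3, dbpa, dbpb, tefa, hlfa, ciarta and ciartb. All 10 passed the filter on low counts, and their values came from 6 libraries of polyadenylated liver RNA, 3 from adult wild-type (WT) fish and 3 from adult fish of the transgenic line lf:Yap, whose livers had more yap1 transcript. The labels do not name the promoter of the transgene or the age, sex or number of fish behind a library, and they do not give the time of day or the lighting at which livers were taken. The livers were frozen on dissection, and all 6 libraries were prepared alike as far as the labels say.

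The circadian clock is a feedback loop of transcription. Clock and Bmal proteins activate genes through E-box elements, among them the Period genes, whose products join Cryptochromes and repress Clock and Bmal in turn. Dbp, Tef and Hlf are the PAR bZIP factors, named for a proline- and acid-rich region beside the basic leucine zipper, and they activate genes through D-box elements. ciart encodes a protein that in the mouse, where it is also called Chrono, represses Clock and Bmal. In the liver these factors pass daily timing on to genes of metabolism, and in zebrafish the tissue clocks also respond to light directly, with per2 as a known light-induced gene. Transcripts of most of these genes therefore change over the day, and since collection times are not given, a difference of genotype and a difference of sampling time cannot be told apart in these libraries.

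The libraries held 71581315 to 87543545 gene counts, and each member had at least 484 reads in every library, so that counting error was small against the spread between libraries. YAP1 (ENSDARG00000068401) stood at 20.4 to 27.4 CPM (counts scaled to equal library totals) in WT and at 291 to 443 CPM in lf:Yap, in the direction of the labels. Summed hepatocyte markers (13 IDs) reached 89725 to 100650 CPM in WT and 112273 to 119734 CPM in lf:Yap, with tfa (20324 to 24218 and 29870 to 41430 CPM) and fabp10a (8086 to 9470 and 11237 to 14344 CPM) higher in every lf:Yap library and FGB (6753 to 8058 and 5695 to 5996 CPM) lower in every one. Endothelial markers (5 IDs) summed to 36.8 to 43.3 and 49.5 to 64.4 CPM, and leukocyte markers (11 IDs, 6 of them with the symbol MFAP4) to 239 to 278 and 77.9 to 224 CPM. The MFAP4 gene with the most reads (ENSDARG00000090557) stood at 79.1 to 110.5 CPM in WT and 21.2 to 94.8 CPM in lf:Yap. The groups overlapped for this gene, as for SPI1 and lyz. Of the leukocyte genes only another MFAP4 gene (ENSDARG00000088745) separated the groups. It read 21.6 to 37.7 CPM in WT and 8.69 to 20.8 CPM in lf:Yap. For the sums of these 3 lists the groups did not overlap, and their part in the results was not tested. Taken singly, the hepatocyte markers other than tfa, fabp10a and FGB overlapped between groups. Exocrine pancreas markers (10 IDs, such as prss1) varied within both groups, from 516 to 14724 CPM in WT and from 48.7 to 15485 CPM in lf:Yap. Biliary, intestinal, erythrocyte, fibroblast and vitellogenin lists overlapped between groups, and 0 genes of the 9 marker lists passed edgeR's test over all genes. The highest sums of the intestinal (155.7 CPM) and vitellogenin (63.6 CPM) lists were in lf:Yap replicate 1. The other libraries stood at 1.71 to 78.6 and at 4.12 to 13.4 CPM, and the part of these transcripts in the results was not tested.

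per2 and hlfa stood higher in every lf:Yap library than in any WT library, dbpb stood lower in every one, and for the other 7 genes the groups overlapped. None of the 10 differences passed the test over all genes: 0 of 10 were called by edgeR's quasi-likelihood test at a Benjamini-Hochberg adjusted p under 0.05, against 0.665% of all 24674 tested genes (0.555% higher and 0.109% lower). By edgeR, 2 members (per2 and hlfa, both higher) had an unadjusted p under 0.05, against 11.3% of all genes (6.12% higher and 5.2% lower). DESeq2 called 1, per2, against 4.31% of all genes, and limma-voom called 0, against 0.754%. Groups without overlap were found for 2 of 10 members in the higher and 1 in the lower direction, against 8.84% and 8.78% of all tested genes, or 17.6% in either direction. The median log2 fold change (lf:Yap over WT) was -0.086 over the 10 members, with 4 above 0 and 6 below, and -0.034 over all tested genes. Within the livers, a change in how many cells carry a transcript and a change in the amount per cell cannot be told apart.

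A second feature of these genes lay between libraries of the same group. lf:Yap replicate 3 had the lowest level of its group for all 10 members, and the lowest of all 6 libraries for 7 of them, against 33.2% and 15.1% of all tested genes. Results for the members are therefore given with and without it, a choice made after the values were seen, although every library was left out in turn by plan. Within WT, replicate 2 had the highest level of its group for 7 of the 10 members, against 30.6% of all tested genes. WT replicate 3 had the lowest for 6 of them, against 35.8%.

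**Figure D1:**
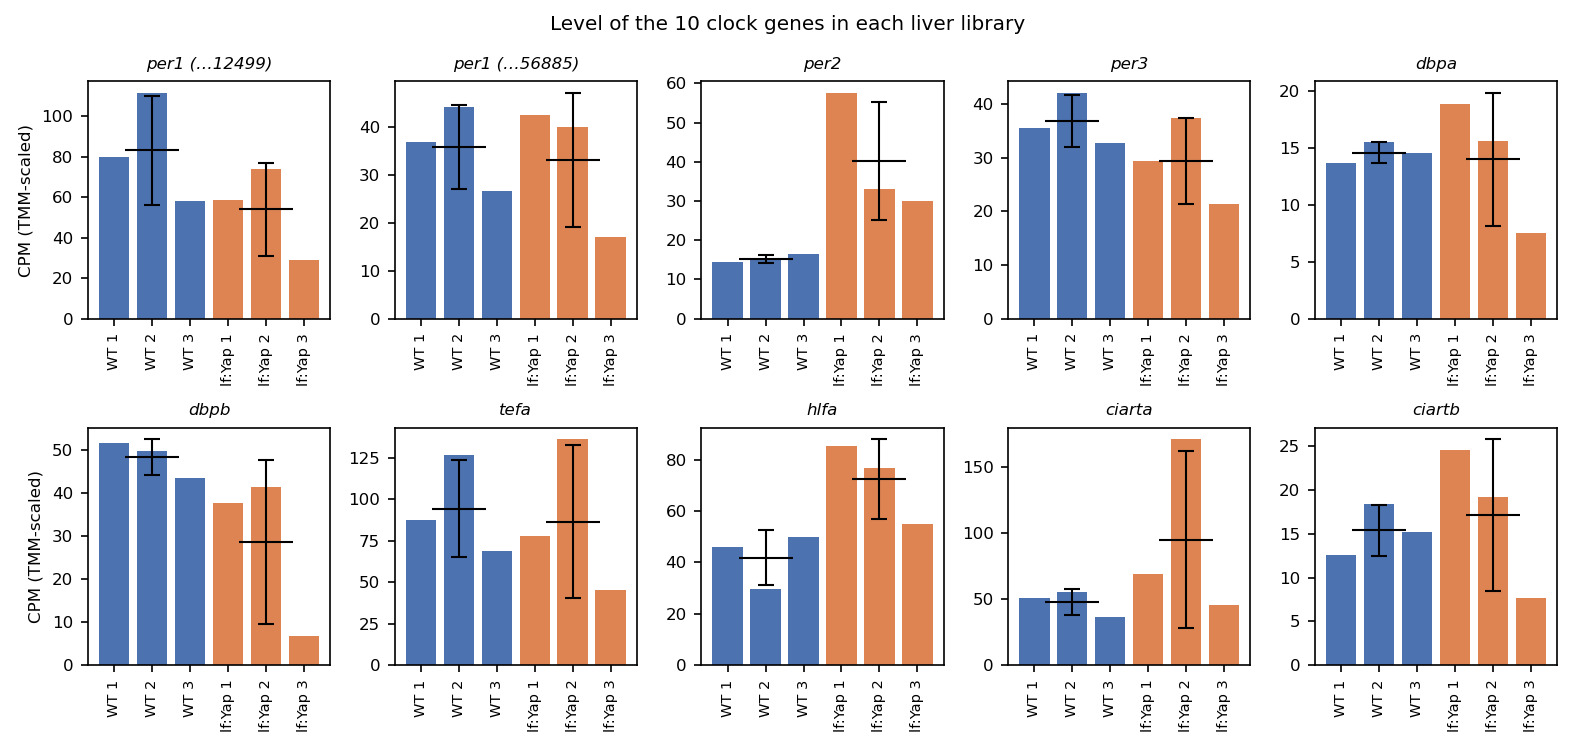
Bars give the level of each of the 10 genes in CPM (vertical axis, scaled by TMM library sizes) in the 3 WT libraries (blue) and the 3 lf:Yap libraries (orange), and the black marks the mean ± SD of each group (n = 3). per2 and hlfa are higher in each lf:Yap library than in each WT library, and lf:Yap replicate 3 is the lowest of its group in all 10 panels.

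Among the Period genes, per2 (ENSDARG00000034503) separated the groups. Its WT libraries stood at 14.4, 15.2 and 16.4 CPM, and those of lf:Yap at 57.6, 33.2 and 30.1 CPM. The WT values lay within a factor of 1.14 of each other, and the lowest lf:Yap library was well above the highest of them. The group means were 15.3 ± 1.01 and 40.3 ± 15.1 CPM (SD, n = 3 each), a 2.63-fold difference (log2 fold change 1.39 ± 0.29, SE; 95% interval 0.72 to 2.07). The adjusted p was 0.112 by edgeR, 0.114 by limma-voom and 0.00124 by DESeq2, and in the fits with edgeR under other settings it ranged from 0.0707, with only genes at 5 CPM or more in 3 libraries, to 0.316, without WT replicate 2. The log2 fold change was 1.57 without lf:Yap replicate 3 and 1.05 without lf:Yap replicate 1, the library with the most per2.

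The other Period genes did not separate the groups. One per1 gene (ENSDARG00000012499) read 79.6, 111.5 and 58.2 CPM in WT and 58.7, 74.1 and 29.0 CPM in lf:Yap. Its second and highest WT library had 1.92 times the level of the third, so that the spread within WT covered both lf:Yap replicates 1 and 2. The log2 fold change was -0.62 ± 0.39 (SE; 95% interval -1.54 to 0.29; edgeR adjusted p = 0.633), and -0.32 without lf:Yap replicate 3. The other per1 gene (ENSDARG00000056885) read 36.8, 44.0 and 26.6 CPM in WT and 42.3, 39.9 and 17.0 CPM in lf:Yap. Replicates 1 and 2 of lf:Yap thus lay inside the WT range and replicate 3 below it. Its log2 fold change was -0.11 ± 0.37 (SE; 95% interval -0.99 to 0.77; edgeR adjusted p = 0.953), and 0.20 without lf:Yap replicate 3. per3 (ENSDARG00000010519) had the narrowest range of the 10 genes over the 6 libraries, with the highest value 1.97 times the lowest. It read 35.5, 42.1 and 32.7 CPM in WT and 29.3, 37.3 and 21.4 CPM in lf:Yap, and lf:Yap replicates 1 and 3 lay below all WT libraries (log2 fold change -0.33 ± 0.25, SE; 95% interval -0.92 to 0.26; edgeR adjusted p = 0.715; -0.14 without lf:Yap replicate 3).

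The ciart genes had their highest levels in lf:Yap libraries, but not in the same one. ciarta (ENSDARG00000058094) read 50.5, 55.5 and 36.7 CPM in WT and 68.6, 170.6 and 45.5 CPM in lf:Yap. Replicate 2 stood far above the rest and replicate 3 inside the WT range, so that the groups overlapped. The means of 47.6 ± 9.75 and 94.9 ± 66.6 CPM (SD, n = 3 each) gave a log2 fold change of 0.996 ± 0.48 (SE; 95% interval -0.13 to 2.13; edgeR adjusted p = 0.508). The difference was 0.26 without lf:Yap replicate 2 and 1.33 without lf:Yap replicate 3, and so rested largely on replicate 2. ciartb (ENSDARG00000088171) read 12.5, 18.4 and 15.2 CPM in WT and 24.5, 19.2 and 7.61 CPM in lf:Yap. Here replicates 1 and 2 were above all WT libraries and replicate 3 was below them (log2 fold change 0.16 ± 0.41, SE; 95% interval -0.82 to 1.13; edgeR adjusted p = 0.940). It was 0.51 without lf:Yap replicate 3 and -0.20 without lf:Yap replicate 1.

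Among the PAR bZIP genes, hlfa (ENSDARG00000074752), which encodes the D-box factor Hlf, was the one with higher levels in lf:Yap. It read 46.1, 29.8 and 49.7 CPM in WT and 85.4, 76.6 and 55.1 CPM in lf:Yap. The lowest lf:Yap library was only slightly above the highest WT library. The means of 41.9 ± 10.6 and 72.4 ± 15.6 CPM (SD, n = 3 each) differed 1.73-fold (log2 fold change 0.79 ± 0.27, SE; 95% interval 0.15 to 1.43; edgeR adjusted p = 0.336, DESeq2 adjusted p = 0.167). Without lf:Yap replicate 3 the log2 fold change was 0.95, and over all fits that left out 1 library it stayed between 0.60 and 0.95.

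dbpb (ENSDARG00000057652), a gene for the D-box binding protein Dbp, stood lower in lf:Yap, by a wide margin in 1 library. It read 51.4, 49.7 and 43.5 CPM in WT and 37.7, 41.3 and 6.71 CPM in lf:Yap. All lf:Yap libraries lay below all WT libraries, 2 of them narrowly and replicate 3 by far. The log2 fold change of -0.75 ± 0.58 (SE; 95% interval -2.13 to 0.62; edgeR adjusted p = 0.719) became -0.28 ± 0.22 (SE) without lf:Yap replicate 3, so that this library carried most of the difference. Its paralog dbpa (ENSDARG00000063014) read 13.7, 15.5 and 14.6 CPM in WT and 18.9, 15.6 and 7.53 CPM in lf:Yap. The WT libraries differed by a factor of 1.14 at most, and the lf:Yap libraries lay on both sides of them (log2 fold change -0.06 ± 0.34, SE; 95% interval -0.85 to 0.73; edgeR adjusted p = 0.975; 0.24 without lf:Yap replicate 3). tefa (ENSDARG00000039117), which encodes the D-box factor Tef, read 87.5, 126.8 and 69.2 CPM in WT and 78.0, 136.3 and 45.5 CPM in lf:Yap. The ranges of the groups overlapped over most of their length (log2 fold change -0.13 ± 0.42, SE; 95% interval -1.11 to 0.86; edgeR adjusted p = 0.954; 0.18 without lf:Yap replicate 3).

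**Figure D2:**
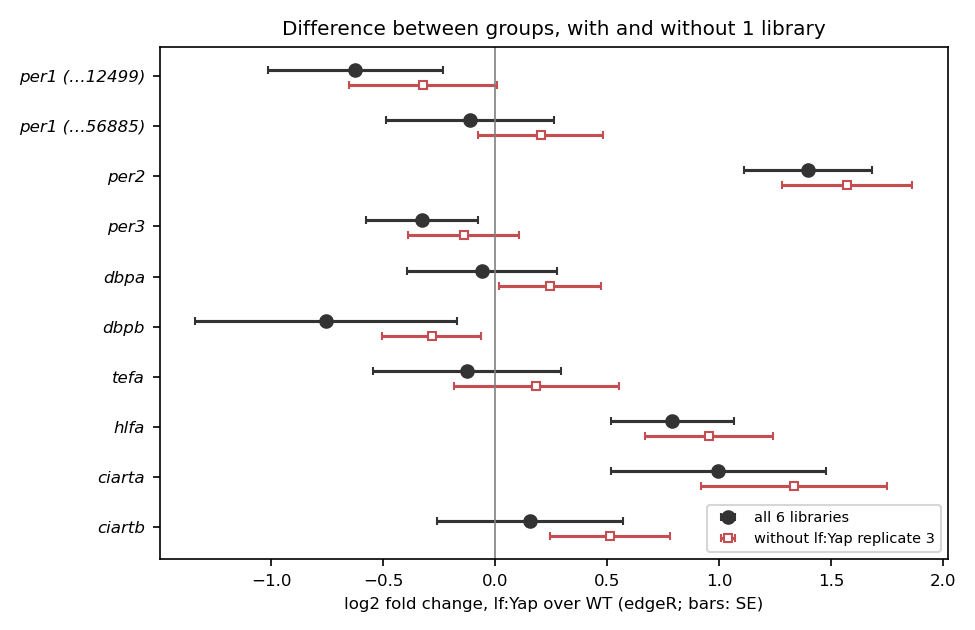
Points give the log2 fold change of each gene (horizontal axis, lf:Yap over WT, edgeR) with its SE, from all 6 libraries (black circles) and without lf:Yap replicate 3 (red squares). per2, hlfa, ciarta and ciartb lie to the right of 0 in both fits, and for the per1 gene ENSDARG00000056885, dbpa and tefa the point moves across 0 when that library is left out.

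lf:Yap replicate 3 stood apart from its group over these genes, while the median of all genes lay close to that of its group. Against the mean of the other lf:Yap libraries, dbpb was 5.89-fold lower in it, ciartb 2.88-fold, ciarta 2.63-fold, the per1 genes 2.29-fold (ENSDARG00000012499) and 2.42-fold (ENSDARG00000056885), tefa 2.36-fold and dbpa 2.29-fold. per3, per2 and hlfa differed least, at 1.56-fold, 1.51-fold and 1.47-fold lower. The median of this log2 difference was -1.22 over the 10 members and -0.04 over the 17026 tested genes with a mean of at least 1 CPM. It was below -1 for 7 of 10 members and for 5.51% of those genes. For each of the other 5 libraries, set against the rest of its own group, 0 members lay below -1 and the members' median was between -0.23 and 0.49. Since no group has another library of this kind, this is a description of 1 library and was not tested. Summed markers of hepatocytes (119734 CPM) and exocrine pancreas (15485 CPM) were the highest of the 6 in that library. So were those of endothelium (64.4 CPM) and of stellate cells and fibroblasts (75.6 CPM). The sums did not hold for every gene of a list. Of the hepatocyte genes apobb.1 (21797 CPM) and tfa (41430 CPM) were highest there, and apoa1a (1400 CPM) and serpina1 (11178 CPM) lowest. The other hepatocyte genes were neither. Of the endothelial genes stab1 (21.6 CPM) and lyve1b (0.263 CPM) were highest there, stab2 (0.748 CPM) was lowest, and cdh5 and FLI1 were neither. WT replicate 1 came close for exocrine pancreas (14724 CPM) and for stellate cells and fibroblasts (71.9 CPM), and lf:Yap replicate 1 for endothelium (59.4 CPM). Summed leukocyte markers stood at 171 CPM in lf:Yap replicate 3, below the 239 to 278 CPM of WT. Of the leukocyte genes ptprc (25.3 CPM) and lyz (11.5 CPM) were highest there, and the others were not. The part of these cells in the low levels was not tested.

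Of the 6 activator genes of the loop, 3 had their highest and the other 3 their second highest level in lf:Yap replicate 3. Of all tested genes 14.2% were highest there. WT replicate 3 was the lowest of the 6 libraries for 5 of these 6 genes, all but bmal2, against 18.9% of all tested genes. Only the genes with the symbol BMAL1 stood far above the mean of the other lf:Yap libraries in replicate 3, by 1.53 and 1.57 on the log2 scale. The CLOCK genes, npas2 and bmal2 stood above it by 0.21 to 0.57. npas2 read 2.66 CPM both there and in WT replicate 1. Of the 6 activator genes tested, 0 were called (edgeR; 0 at an unadjusted p under 0.05 and 0 by DESeq2), and all 6 log2 fold changes were above 0, between 0.034 and 1.06. Both genes with the symbol BMAL1, whose protein is the partner of Clock, had their highest level of the 6 libraries in lf:Yap replicate 3. The first (ENSDARG00000006791) read 6.91, 5.09 and 2.72 CPM in WT and 3.73, 4.24 and 11.5 CPM in lf:Yap. The second (ENSDARG00000035732) read 2.72, 3.78 and 1.32 CPM in WT and 3.02, 3.55 and 9.78 CPM in lf:Yap. In the same library dbpb, both per1 genes, per3, dbpa, tefa and ciartb were at their lowest. The log2 fold changes of the BMAL1 genes were 0.41 and 1.06 with all libraries, and -0.30 and 0.33 without lf:Yap replicate 3. The genes with the symbol CLOCK (ENSDARG00000003631 and ENSDARG00000011703) differed by 0.10 and 0.034, npas2 (ENSDARG00000016536) by 0.57 and bmal2 (ENSDARG00000041381) by 0.30 on the log2 scale, with edgeR adjusted p-values of 0.731 to 0.989.

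**Figure D3:**
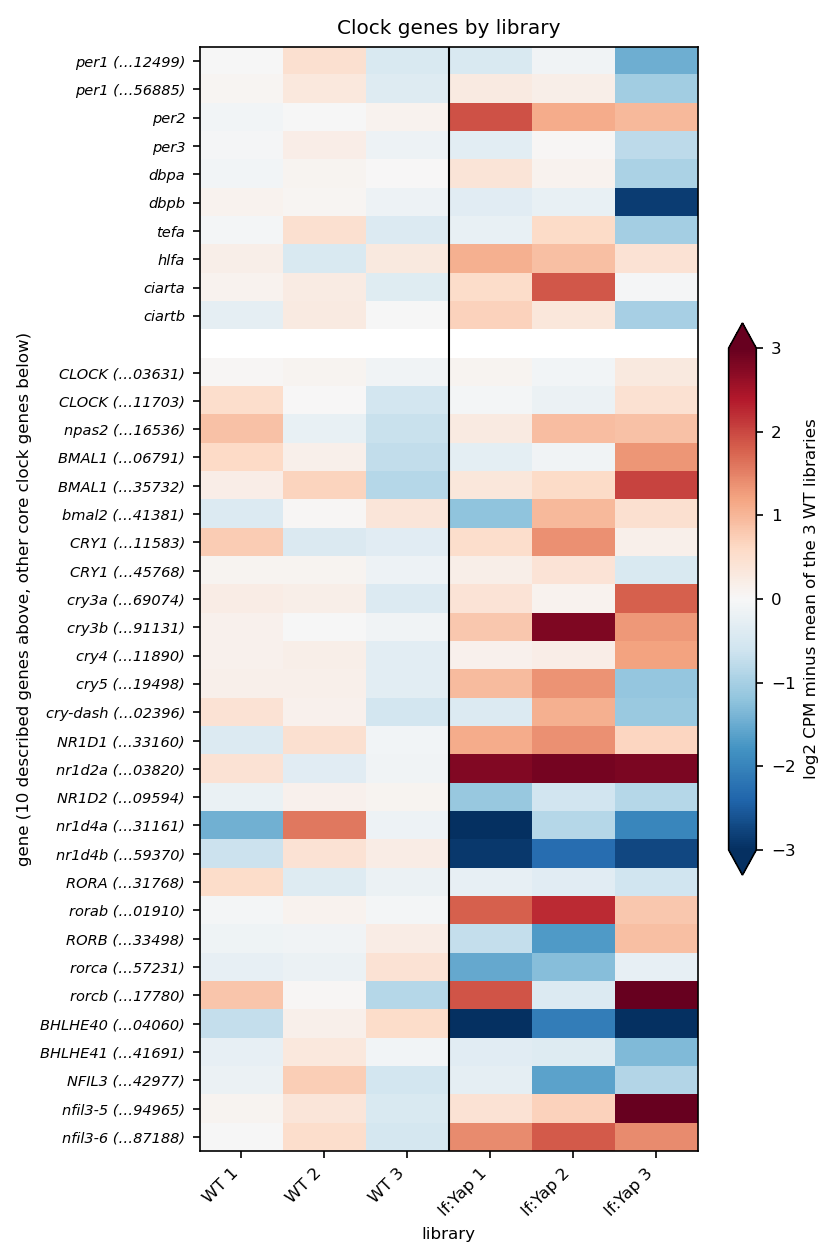
Each cell gives the log2 CPM of a gene (rows) in a library (columns) minus the mean of the 3 WT libraries, from blue (lower) to red (higher), with the 10 described genes above the gap and the 28 other core clock genes below it; colours end at 3 in either direction. The column of lf:Yap replicate 3 runs from -0.78 to -2.84 for 7 of the 10 genes and is red for both BMAL1 genes.

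Of the 28 other core clock genes tested, 1 was called higher and 2 lower (edgeR, adjusted p under 0.05), against 0.665% of all genes; 25 did not pass. Their median log2 fold change was 0.35, against -0.034 over all tested genes, and the groups did not overlap for 6 in the higher and 4 in the lower direction, against 8.84% and 8.78% of all tested genes. nr1d2a (ENSDARG00000003820), a gene of the Rev-erb repressors that compete at the RORE, rose 6.91-fold, to 249.7 ± 7.65 CPM (SD, n = 3; edgeR adjusted p = 0.00924). nr1d4b (ENSDARG00000059370), of the same receptor family, fell from 3.30 to 0.515 CPM, and BHLHE40 (ENSDARG00000004060), a gene for a Dec repressor that binds E-boxes, fell from 182.0 to 27.7 CPM (adjusted p = 0.0420 and 0.0493, edgeR). With 1 library left out, nr1d2a passed in every fit but that without WT replicate 3 (edgeR adjusted p = 0.0543), and nr1d4b and BHLHE40 passed only without WT replicate 1. nr1d4b did not pass with limma-voom (adjusted p = 0.0595), nor BHLHE40 without a filter on low counts (edgeR adjusted p = 0.0514). The count of 3 was 0 without WT replicate 3, 1 without WT replicate 2 or lf:Yap replicates 1 or 2, and 2 without lf:Yap replicate 3. NR1D1 (ENSDARG00000033160) had a log2 fold change of 1.03 ± 0.30 (SE; edgeR adjusted p = 0.256), and nfil3-6 (ENSDARG00000087188), of the family of D-box repressors related to Nfil3, one of 1.51 ± 0.30 (DESeq2 adjusted p = 0.000824, not past the threshold by edgeR). rorab (ENSDARG00000001910), a Ror activator gene, stood 3.30-fold higher (log2 1.72 ± 0.36, SE; edgeR adjusted p = 0.116; 0.0465 without lf:Yap replicate 3; DESeq2 adjusted p = 0.000818). The groups also did not overlap for cry3b (ENSDARG00000091131), a cryptochrome gene, with a log2 fold change of 1.90 (1.08 without lf:Yap replicate 2; DESeq2 adjusted p = 0.00836), and for nfil3-5 (ENSDARG00000094965), with 3.22 (0.52 without lf:Yap replicate 3). In the lower direction this held for NR1D2 (ENSDARG00000009594), with -0.85 (DESeq2 adjusted p = 0.0263), and BHLHE41 (ENSDARG00000041691), with -0.65 (-0.39 without lf:Yap replicate 3). The edgeR adjusted p-values of these 4 genes were 0.190 to 0.512. In lf:Yap replicate 3, 5 of these 28 genes had their lowest and 8 their highest level of the 6 libraries, against 7 and 0 of the 10 members and 15.1% and 14.2% of all tested genes. Other libraries had higher counts over the 28 genes, with WT replicate 3 the lowest for 12 and lf:Yap replicate 2 the highest for 11.

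Of 20 tested genes for turnover of Period and Cryptochrome proteins and for clock outputs, usp2b (ENSDARG00000074120), a ubiquitin protease gene with a clock-controlled counterpart in mammals, was the 1 that passed, against 0.665% of all tested genes. Its level rose from 8.73 ± 0.955 CPM in WT to 38.6 ± 4.07 CPM (SD, n = 3 each), a 4.42-fold change (edgeR adjusted p = 0.00963), and its adjusted p was 0.0501 without WT replicate 3, the one fit of the 6 that left out 1 library in which it did not pass. The groups did not overlap for 6 of the 20 in the higher direction, namely usp2b, USP2 (ENSDARG00000020107), PCK1 (ENSDARG00000013522), CSNK1D (ENSDARG00000006125), gsk3bb (ENSDARG00000052468) and 1 of the GSK3A genes (ENSDARG00000029501). They did not overlap for 1 in the lower direction, hmga1a (ENSDARG00000028335); over all tested genes the shares were 8.84% and 8.78%. CSNK1D, a gene of the casein kinases that mark Period proteins for degradation, had a log2 fold change of 0.34 ± 0.20 (SE, edgeR adjusted p = 0.609). Its paralog csnk1da (ENSDARG00000008370) had one of 0.08 ± 0.21 (SE, edgeR adjusted p = 0.938). The groups overlapped for csnk1da and for csnk1e (ENSDARG00000045150).

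The ratio of paralogs within a library removes what a pair shares. The per1 gene ENSDARG00000012499 had 2.17, 2.54 and 2.19 times the CPM of ENSDARG00000056885 in WT and 1.39, 1.86 and 1.71 times in lf:Yap. All lf:Yap ratios were below all WT ratios, lf:Yap replicate 3 included, and the mean log2 ratio differed by -0.48. The ratio of dbpa to dbpb was 0.266, 0.312 and 0.335 in WT and 0.501, 0.376 and 1.12 in lf:Yap, without overlap and with a mean log2 difference of 0.98, or 0.52 without lf:Yap replicate 3. Two-sided exact permutation tests over the 6 libraries gave p = 0.1 for both pairs, which is the smallest p that 3 against 3 libraries can give, and 0.15 after adjustment over the 3 pairs. The ratio of ciarta to ciartb was 4.03, 3.01 and 2.42 in WT and 2.79, 8.88 and 5.98 in lf:Yap, with overlap (mean log2 difference 0.78; exact permutation p = 0.3, adjusted 0.3). These ratios are of read counts not divided by transcript length, so they compare libraries and not the abundance of the paralogs, and how reads shared by paralogs were counted is not given in the sources used here.

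**Figure D4:**
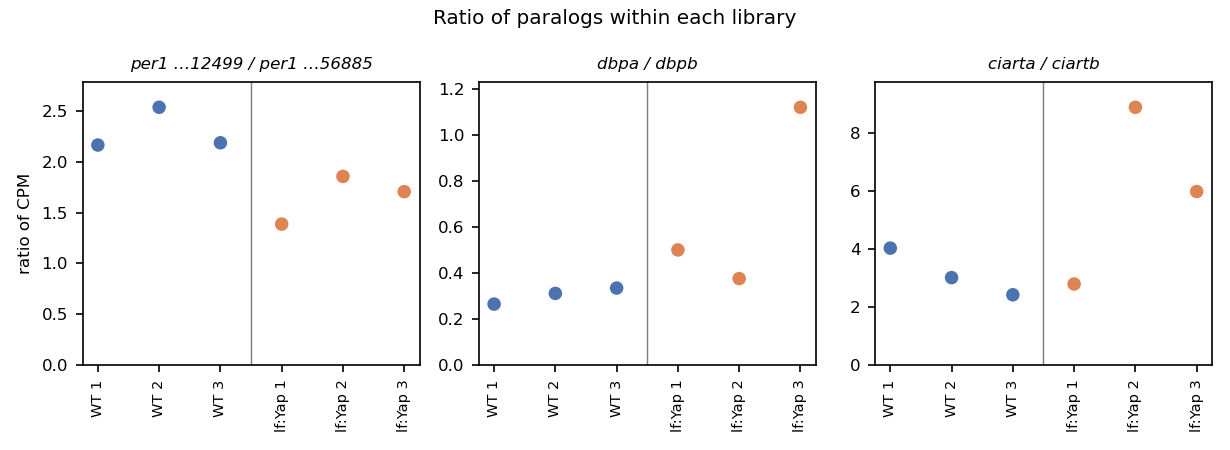
Points give the ratio of the CPM of 2 paralogs (vertical axis, from 0) in each library, WT in blue and lf:Yap in orange, for the per1 pair, the dbp pair and the ciart pair. The per1 ratio is 2.17 to 2.54 in WT and 1.39 to 1.86 in lf:Yap, and the dbpa to dbpb ratio reaches 1.12 in lf:Yap replicate 3.

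Some members had more similar profiles over the libraries than others, and no cut-off was set that would divide them into classes. Likeness was measured as the root mean square difference of centred log2(CPM + 2) over the 6 libraries, so that 0 means the same profile. dbpa and ciartb were the closest pair, at 0.159, and the per1 gene ENSDARG00000056885 lay at 0.205 from dbpa, per3 at 0.255 from dbpa, and tefa at 0.259 from the per1 gene ENSDARG00000012499. per2 and hlfa were each other's nearest member, at 0.361, while dbpb and ciarta had no member nearer than 0.473 and 0.526. Among 7360 other genes with a mean of at least 5 CPM and a gene symbol other than a clone name, those most like per2, the member with the largest log2 fold change, were crp3 (ENSDARG00000042613), at 0.0748, PIP5K1A (ENSDARG00000024642), a phosphatidylinositol phosphate kinase gene, and SMARCD3 (ENSDARG00000019969), a gene of a chromatin remodelling subunit, both at 0.135. crp3, of the C-reactive protein family, read 1300, 1273 and 1436 CPM in WT and 4064, 2577 and 2290 CPM in lf:Yap. Its order of libraries within lf:Yap was that of per2, which the choice by likeness over these libraries favours. Those most like tefa, the member with the most reads, were BCAT2 (ENSDARG00000054849), a branched-chain aminotransferase gene, at 0.185, PPP6R2 (ENSDARG00000069654), a phosphatase subunit gene, at 0.201, and tdh (ENSDARG00000002745), a threonine dehydrogenase gene, at 0.228. For per2 and for tefa these genes lay nearer than any other member. They were picked as the nearest of 7360 genes, far more than there are members, which by itself favours small distances. The comparison therefore cannot show whether such closeness is particular to the members.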

How the data were processed

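The series' table gives, as deposited, the counts of reads for each Ensembl gene and library, with no normalization visible in the values. The submitters' processing notes name STAR (2.3.0e) and HTSeq (0.6.0); a genome build, an annotation and a strand setting are not given in those notes or the labels. Titles gave groups and replicate numbers. Whether each library is a separate fish is not stated. The p-values set the difference between groups against the spread of these libraries, which may not be the spread between fish. edgeR 4.0.16 (R 4.3.3) was fitted to both groups with filterByExpr, TMM factors and a robust quasi-likelihood fit; tests were two-sided, with Benjamini-Hochberg adjustment over 24674 genes at 0.05. The procedure was also run on counts simulated from its own fitted dispersions, and no result given here rests on that run. Alternatives were DESeq2 1.42.0, limma-voom (limma 3.58.1), other scalings and filters, a replicate block and leaving out each library. CPM use TMM-scaled library totals; a standard error is the log2 fold change over the square root of F. A name table gave symbols for 17999 of 25640 IDs, and list entries without their own symbol took the capital symbol of their family. Of 34 core clock entries 6 had no matching row, tefb and hlfb among them, and were not analysed here, nor were 5 of 28 turnover and output entries. Members and lists were chosen with earlier results of these data known. Named were all members, list genes that passed or whose groups did not overlap, the activators, nr1d1, and the 3 genes most like each of 2 members; the closing section adds 4 clock genes chosen after their values were seen.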

Additional observations from a re-analysis of the deposited data

How the results depend on the processing

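No member passed in any edgeR or limma-voom fit, including the 6 that left out 1 library; DESeq2 called 1, per2. Over all genes 164 were called in the fit reported, 1063 by DESeq2 (673 higher, 390 lower), 17 with a replicate block and 32 to 94 without 1 library. The other core clock genes gave 3 calls, 7 by DESeq2, 0 with a replicate block and 0 to 3 without 1 library. Turnover and output genes gave 1, 2 by DESeq2, 0 with a replicate block and 0 to 1 without 1 library. The cause was not tested. Over all genes the replicate numbers gave no clear pairing. Deviations from the group means correlated at 0.148, 0.169 and -0.299 for numbers 1, 2 and 3. Not every library was closest to its own number. With 3 libraries a group, such correlations cannot settle whether the numbers mark shared batches. With a replicate block the SE of the log2 fold change was smaller for both per1 genes, per3, dbpb, tefa and ciarta. It was larger for per2, dbpa, hlfa and ciartb. Without 1 library the sign turned for the per1 gene ENSDARG00000056885 (-0.33 to 0.20), dbpa (-0.34 to 0.24), tefa (-0.61 to 0.18), ciartb (-0.20 to 0.51), CLOCK (ENSDARG00000011703; -0.21 to 0.35), BMAL1 (ENSDARG00000006791; -0.30 to 0.74) and bmal2 (-0.17 to 0.71); all are log2 fold changes. The paralog ratios kept their sign, at -0.57 to -0.36 for per1, 0.52 to 1.31 for dbp and 0.41 to 1.24 for ciart without 1 library. At 3 libraries a group the 95% intervals of the members span 1.18 (per3) to 2.75 (dbpb) log2 units. Those of per2 (0.72 to 2.07) and hlfa (0.15 to 1.43) lay above 0, without adjustment for the number of genes. Those of the other members included 0, so that no difference and differences up to the ends of the interval both remain possible.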

Other observations

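Other light- and clock-linked genes also had extreme values in lf:Yap replicate 3, and these were picked after their values were seen. The photolyase-family genes cry5 (ENSDARG00000019498) and cry-dash (ENSDARG00000002396) were lowest there, at 1.79 and 3.09 CPM, against 7.76 and 5.06 CPM in lf:Yap replicate 1 and 10.2 and 14.1 CPM in lf:Yap replicate 2. cry3a (ENSDARG00000069074), a cryptochrome gene, was highest there, at 342.9 CPM against 132.5 and 106.9 CPM. nfil3-5 (ENSDARG00000094965) was at 28.9 CPM against 1.51 and 1.80 CPM, and rorcb (ENSDARG00000017780), a Ror gene, at 21.6 CPM against 5.72 and 1.17 CPM. In lf:Yap replicate 2 it was cry3b (ENSDARG00000091131) that was high, at 174.0 CPM against 43.7 and 60.8 CPM, as ciarta was.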
